A study of Arabidopsis thaliana with 18 samples.

Results

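The comparison described here asks whether the change in transcripts between the first hour and the first day of cold differed between wild type plants and the gemin2 mutant of Arabidopsis thaliana. It is the interaction (gemin2 24 h minus gemin2 1 h) minus (WT 24 h minus WT 1 h), which is also the genotype difference after 24 h minus the genotype difference after 1 h. Its members are 12 of the study's 18 libraries, namely 3 of WT and 3 of gemin2 after 1 h at 10 °C and 3 of each after 24 h at 10 °C. All plants were of the Col ecotype and were whole plants pooled over tissues, grown on agar medium in continuous white light for 9 days at 22 °C, with the cold given on the last day. WT carries no mutation and gemin2 is mutated in GEMIN2, with the allele not given in the sources used here. No library of plants kept at 22 °C entered the comparison, so nothing below is a change against uncooled plants. A positive interaction means that a level moved up more, or down less, from 1 h to 24 h in gemin2 than in WT, and a negative interaction means the reverse.

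GEMIN2 is a partner of the SMN protein in animals and the best conserved member of that complex in plants. It helps to load the Sm proteins as a ring on the small nuclear RNAs of the spliceosome, so that the small nuclear ribonucleoproteins (snRNPs), which recognise and remove introns, can form. Splicing in plants changes with temperature, and several genes of the circadian clock are alternatively spliced in the cold. Cold acclimation of Arabidopsis starts within minutes to hours with calcium signals and CBF transcription factors and goes on over the following day with the COR genes, sugars and flavonoids.

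The 12 libraries held from 19985924 to 53766089 counts over genes, from 413561 to 1205360 over introns and from 821972 to 1840257 over alternative splicing bins. Library A lay apart from B and C in 3 of the 4 groups. The root mean square log2 difference over tested genes was 0.312 to 0.354 between A and the other libraries of gemin2 after 1 h, against 0.177 between B and C. After 24 h it was 0.325 to 0.360 against 0.204 in gemin2 and 0.279 to 0.314 against 0.183 in WT, whereas the WT libraries after 1 h differed by 0.189 to 0.217. Chloroplast genes took 1.58% to 2.03% of the counts of WT and 1.87% to 2.30% of those of gemin2 after 1 h, and 0.251% to 0.888% and 0.602% to 0.966% after 24 h. Whether replicates were grown separately is not stated in the labels, and p-values then cover only the spread between these libraries, which may be technical. In bulk RNA, fewer cells of a type and less RNA per cell cannot be told apart.

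GEMIN2 (chromosome 1, 20297965 to 20300908, TAIR10) separated the genotypes without overlap, with the 6 gemin2 libraries at the lower levels. It was at 10.6, 10.2 and 11.7 CPM after 1 h and 20.9, 22.0 and 21.7 CPM after 24 h in WT libraries A, B and C (CPM, the count scaled by the TMM-adjusted size of the library), and at 2.92, 2.91 and 3.19 CPM after 1 h and 5.67, 4.75 and 5.42 CPM after 24 h in those of gemin2. Its level rose from 1 h to 24 h in both genotypes, by 0.99 ± 0.10 and 0.81 ± 0.12 on the log2 scale (± SE, n = 3 libraries a group here and below). The interaction of GEMIN2 was -0.18 ± 0.15, adjusted p = 0.513 in the quasi-likelihood test of edgeR, adjusted by Benjamini-Hochberg over all genes, with a 95% interval of -0.51 to 0.15, so the genotype difference of GEMIN2 itself was not shown to change with time. All adjusted p-values of genes below come from that test, and the threshold is 0.05.

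Between 1 h and 24 h of cold the transcriptome of WT and that of gemin2 moved largely along the same line. The interaction passed for 10.8% of the genes. Of 21737 genes tested, 849 had a positive interaction (3.91%) and 1493 a negative one (6.87%). Genes that did not pass were not thereby shown to move alike. In the same test 24.9% of all genes had an unadjusted p under 0.05. The confidence interval of the interaction lay within ±1 for 63.6% of the genes. In simulated data, 52.1% of gene interactions of 2 times were recovered and 5.36% of those of 1.5 times. The change from 1 h to 24 h itself passed for 5828 genes higher and 5512 lower in WT and for 5987 and 6791 in gemin2. Pearson's r between the log2 changes of WT and of gemin2, which share no library, was 0.818 over 21737 genes, a description over genes that are not independent. The balance of the directions depended on the fit: 36.3% of the called genes were positive here, 47.5% with DESeq2, 46.9% without library A of all 4 groups and 54% when all 18 libraries shared the spread and scaling. Leaving out library A of WT after 1 h, C of WT after 24 h, C of gemin2 after 1 h or C of gemin2 after 24 h left 546, 522, 543 or 558 positive genes. Of the 2342 called genes, 1257 passed in each of the 12 fits that left out 1 library.

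**Figure D1:**
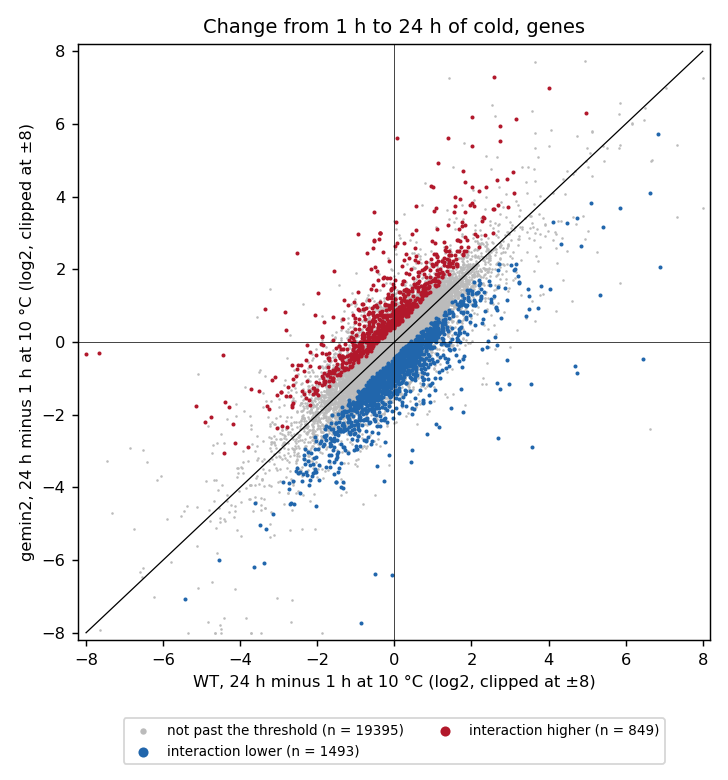
Change of each of the 21737 tested genes from 1 h to 24 h at 10 °C in WT (horizontal axis, log2) and in gemin2 (vertical axis, log2), with values clipped at ±8 and the diagonal marking equal change. The 849 genes with a positive interaction lie above the diagonal and the 1493 with a negative interaction lie below it, within a cloud that follows the diagonal.

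The called genes fell into a few forms. Among the 849 positive genes, 387 differed between the genotypes only after 24 h, when they were higher in gemin2, and 212 only after 1 h, when they were lower in gemin2. A further 145 were higher in gemin2 at both times, 71 were lower after 1 h and higher after 24 h, 25 were lower at both times and 9 passed at neither time. By their course in time, 242 rose in both genotypes, 241 rose in gemin2 without passing in WT, 154 fell in WT without passing in gemin2, 145 fell in both and 67 fell in WT and rose in gemin2. Among the 1493 negative genes, 718 were lower in gemin2 only after 24 h, 414 were higher in gemin2 only after 1 h, and 167 were higher after 1 h and lower after 24 h. A further 140 were lower at both times, 34 were higher at both times and 20 passed at neither time. In time, 488 of the negative genes fell in both genotypes, 457 fell in gemin2 without passing in WT, 248 rose in WT without passing in gemin2, 162 rose in both and 136 rose in WT and fell in gemin2. Both tests that sort a gene here use the libraries of the interaction, so these counts describe the calls and do not support them.

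The genes described first were named for a large positive interaction or a small p, together with a minimum mean level, and that choice favours genes that are high in gemin2 after 24 h. ABCC3 (chromosome 3, 4195786 to 4201265), an ABC transporter of the vacuole that moves glutathione conjugates, was at 70.9, 58.9 and 73.0 CPM after 1 h and 92.7, 109.5 and 99.1 CPM after 24 h in WT libraries A, B and C. In gemin2 ABCC3 was at 119, 119.8 and 114 CPM after 1 h and 886, 1068 and 1033 CPM after 24 h. The gemin2 libraries after 24 h lie far above the other 9, and the interaction was 2.51 ± 0.16, adjusted p = 1.25e-06. UGT73C6 and DOGT1 are neighbouring members of a family of enzymes that add glucose to small molecules, and both followed a like course. UGT73C6 (chromosome 2, 15420190 to 15421866) was at 7.71, 6.07 and 8.22 CPM after 1 h and 4.91, 5.09 and 5.25 CPM after 24 h in WT. In gemin2 UGT73C6 was at 6.03, 6.87 and 5.47 CPM after 1 h and 39.4, 43.2 and 44.2 CPM after 24 h. Its level fell in WT (-0.52 ± 0.13) and rose in gemin2 (2.79 ± 0.12), with an interaction of 3.31 ± 0.18, adjusted p = 2.81e-07. DOGT1, also known as UGT73C5, whose enzyme acts on brassinosteroids and on a fungal toxin, had means of 15.03 ± 0.553 CPM and 10.5 ± 0.559 CPM in WT and 18.7 ± 3.35 CPM and 78.6 ± 4.92 CPM in gemin2 and an interaction of 2.58 ± 0.17, adjusted p = 1.55e-06. Genes of the UGT73C family are close copies of each other, and the noncoding gene AT2G36792 (3.32 ± 0.18) overlaps UGT73C6 on the other strand in libraries that do not keep strand, so these 3 genes may share reads.

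Other genes followed the same course. AT5G13210, which codes for a conserved protein of unknown role, was at 1.68, 1.65 and 0.831 CPM after 1 h and 8.88, 7.96 and 10.3 CPM after 24 h in WT. In gemin2 AT5G13210 was at 2.35, 2.85 and 2.37 CPM after 1 h and 165, 158 and 143 CPM after 24 h, so that it rose in both genotypes and far more in the mutant (3.21 ± 0.27, adjusted p = 1.54e-05). AT3G24780 (3.26 ± 0.28, adjusted p = 1.82e-05) and AT5G54095 (4.17 ± 0.47, adjusted p = 1.33e-04) rose in both genotypes as well. AT5G54095 had levels of up to 1.26 CPM in the other 9 libraries and 32.6 ± 3.52 CPM in gemin2 after 24 h. The pseudogene AT5G01335 had means of 0.925 ± 0.237 CPM and 1.33 ± 0.531 CPM in WT and 1.26 ± 0.184 CPM and 17.0 ± 3.90 CPM in gemin2 and an interaction of 3.17 ± 0.41. AT1G25025, AT1G25112 and AT1G25180 carry identical counts in all libraries (interaction 3.38 ± 0.33), so these 3 names stand for 1 signal that cannot be assigned to a gene. AT1G24851, which overlaps AT1G24880, had means of 0.961 ± 0.335 CPM and 0.688 ± 0.230 CPM in WT and 2.77 ± 0.601 CPM and 20.1 ± 4.68 CPM in gemin2 and an interaction of 3.25 ± 0.42.

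SNRK2-8 (chromosome 1, 29457205 to 29459400), a protein kinase of the SnRK2 family linked to drought responses, went opposite ways in the genotypes. SNRK2-8 was at 18.6, 20.1 and 21.2 CPM after 1 h and 6.34, 6.36 and 7.26 CPM after 24 h in WT. In gemin2 SNRK2-8 was at 19.2, 20.3 and 18.1 CPM after 1 h and 28.5, 33.1 and 30.8 CPM after 24 h. The libraries of both genotypes overlap after 1 h and are far apart after 24 h, and the interaction was 2.27 ± 0.14, adjusted p = 1.25e-06. It overlaps AT1G78280.

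The negative interactions included many genes that were raised in gemin2 after 1 h and level with WT, or below it, after 24 h. The largest class, 718 of 1493, was instead lower in gemin2 only after 24 h. The negative genes described here were likewise named for a large interaction or a small p, with a minimum mean level. AT2G30600 (chromosome 2, 13036876 to 13041684), which codes for a BTB domain protein and overlaps AT2G30615, was at 50.4, 52.3 and 52.7 CPM after 1 h and 31.3, 39.7 and 32.3 CPM after 24 h in WT. In gemin2 AT2G30600 was at 270.5, 208 and 234 CPM after 1 h and 33.4, 37.5 and 35.8 CPM after 24 h. The gemin2 libraries after 1 h stand above the other 9, which lie between 31.3 and 52.7 CPM, and the interaction was -2.15 ± 0.16, adjusted p = 6.44e-06. KCS8 (chromosome 2, 6542256 to 6543947), a condensing enzyme of very-long-chain fatty acid synthesis, was at 25.4, 22.0 and 24.9 CPM after 1 h and 26.2, 29.6 and 27.4 CPM after 24 h in WT. In gemin2 KCS8 was at 77.6, 81.1 and 82.3 CPM after 1 h and 23.2, 30.1 and 23.1 CPM after 24 h, again high only after 1 h (-1.86 ± 0.15, adjusted p = 1.26e-05). AT5G62360, a protein of the pectin methylesterase inhibitor family, was 1.66 ± 0.19 higher in gemin2 after 1 h and -0.83 ± 0.21 after 24 h, with an interaction of -2.50 ± 0.28, adjusted p = 1.14e-04. AT3G15450, which overlaps AT3G15460, fell from 1 h to 24 h in both genotypes and far more in gemin2 (-2.47 ± 0.31, adjusted p = 2.32e-04).

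ASN1, the asparagine synthetase induced by darkness and low sugar, had a negative interaction that rested on spread values. It was at 21.0, 22.8 and 22.2 CPM after 1 h and 22.2, 16.6 and 20.9 CPM after 24 h in WT, and at 247, 53.8 and 98.5 CPM after 1 h and 22.1, 8.78 and 16.3 CPM after 24 h in gemin2. After 1 h library A of gemin2 was more than 2 times as high as B and C, and the interaction was -2.94 ± 0.60, adjusted p = 0.00654 with a 95% interval of -4.23 to -1.66. The call held in each fit without 1 library, with adjusted p up to 0.0207.

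NUDT8 (chromosome 5, 19183601 to 19185644), a Nudix hydrolase, crossed over between the genotypes. NUDT8 was at 8.30, 8.26 and 8.08 CPM after 1 h and 3.12, 3.56 and 2.92 CPM after 24 h in WT. In gemin2 NUDT8 was at 18.2, 16.4 and 16.6 CPM after 1 h and 1.29, 1.28 and 0.988 CPM after 24 h, higher than WT after 1 h and lower after 24 h (-2.51 ± 0.19, adjusted p = 6.96e-06). AT5G22920, which codes for a RING zinc finger protein, had means of 15.8 ± 1.07 CPM and 1.14 ± 0.695 CPM in WT and 37.1 ± 5.36 CPM and 0.466 ± 0.286 CPM in gemin2 after 1 h and 24 h (-2.57 ± 0.47, adjusted p = 0.00358), with the libraries of the genotypes overlapping after 24 h. AT5G23240, which codes for the DnaJ protein DJC76 and overlaps AT5G23235, rose in WT (1.05 ± 0.14) and fell in gemin2 (-1.32 ± 0.14), with an interaction of -2.36 ± 0.19, adjusted p = 1.26e-05. The noncoding gene AT1G30282, which overlaps AT1G30280, did likewise (-2.40 ± 0.22, adjusted p = 2.96e-05).

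CYP71A12, AT4G12490 and AT1G26240 rose from 1 h to 24 h in both genotypes and less in gemin2, where each was higher than in WT after 1 h. CYP71A12 (chromosome 2, 13099336 to 13101413), an enzyme of camalexin synthesis, was at 7.89, 9.68 and 11.05 CPM after 1 h and 131, 96.0 and 80.8 CPM after 24 h in WT. In gemin2 CYP71A12 was at 40.4, 17.1 and 44.4 CPM after 1 h and 60.9, 58.6 and 48.2 CPM after 24 h. All gemin2 libraries after 1 h exceed those of WT, and after 24 h all lie below them (-2.70 ± 0.39, adjusted p = 7.82e-04). AT4G12490, a lipid transfer protein of the azelaic acid induced group with close copies beside it, was 2.87 ± 0.18 higher in gemin2 after 1 h and did not differ past the threshold after 24 h (0.29 ± 0.15, adjusted p = 0.138), with an interaction of -2.58 ± 0.23, adjusted p = 2.16e-05. AT1G26240, a proline-rich extensin-like protein of the cell wall, had 13 counts over the 3 WT libraries after 1 h and means of 0.168 ± 0.170 CPM and 17.4 ± 2.03 CPM in WT and 1.21 ± 0.371 CPM and 5.02 ± 0.679 CPM in gemin2 (-4.85 ± 0.48, adjusted p = 4.91e-05).

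**Figure D2:**
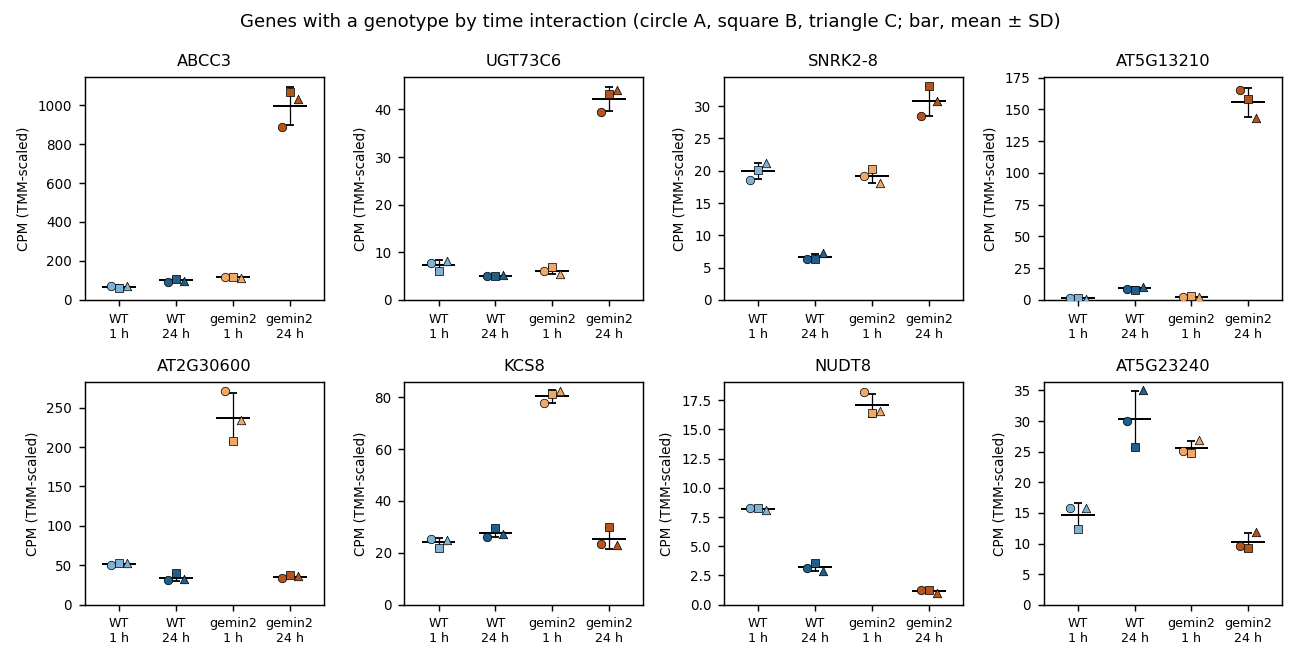
Levels in CPM (vertical axes, from 0) of 8 genes in each library, by group, with a bar for the mean and whiskers for the SD of 3 libraries. ABCC3, UGT73C6 and AT5G13210 are high in gemin2 after 24 h, AT2G30600 and KCS8 are high in gemin2 after 1 h, and SNRK2-8, NUDT8 and AT5G23240 change order between the genotypes with time.

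Sequence before the gene starts was searched because clock-regulated and cold-regulated genes of Arabidopsis often carry short known elements there. The evening element, AAAATATCT on either strand, is bound by the MYB-like clock factors of the CCA1 and REVEILLE group. In the 250 bases before the start given by the deposited annotation it was found for 85 of 1489 genes with a negative interaction (5.71%), for 12 of 841 with a positive one (1.43%) and for 500 of 21503 tested genes (2.33%). The G-box, CACGTG, was found for 12.4% of the positive, 9.81% of the negative and 8.86% of the tested genes. The CCA1-binding site, AAAAATCT, was found for 6.30%, 7.59% and 6.46%, the C-repeat, CCGAC, for 16.9%, 13.2% and 14.3%, and the W-box, TTGACC, for 14.9%, 11.1% and 12.7%. None of these motifs contains another, and a match describes letters and is not evidence of binding. Of the 26 genes named for the size or p of their interaction, 13 in each direction, 3 hold an evening element, all of them negative. Their bases before the start in the RefSeq annotation (TAIR10) are printed 5′ to 3′ on the plus strand, on which all 3 genes lie, with the element in capitals, to show the letters that were counted.
AT2G30600 (chr2:13036626-13036813, element 77 bases before the deposited start): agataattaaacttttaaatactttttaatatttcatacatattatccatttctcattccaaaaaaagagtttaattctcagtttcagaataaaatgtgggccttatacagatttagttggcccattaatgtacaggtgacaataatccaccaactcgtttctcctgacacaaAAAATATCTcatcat
KCS8 (chr2:6542006-6542165, element 110 bases before the deposited start): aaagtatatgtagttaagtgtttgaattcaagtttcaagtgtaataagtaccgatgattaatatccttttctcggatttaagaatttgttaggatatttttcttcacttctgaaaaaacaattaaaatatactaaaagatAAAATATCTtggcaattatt
AT5G62360 (chr5:25040399-25040539, element 155 bases before the deposited start, in reverse complement): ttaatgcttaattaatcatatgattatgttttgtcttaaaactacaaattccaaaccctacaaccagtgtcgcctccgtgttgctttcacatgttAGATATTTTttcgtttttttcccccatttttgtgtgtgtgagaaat

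Clock genes were called in both directions, with LHY, CCA1, RVE1, RVE2 and RVE8 positive and PRR7, PRR5, GI and FKF1 among the negative. Of the 29 clock genes, all tested, 5 had a positive and 8 a negative interaction, beside 3.91% and 6.87% of all genes tested, and their median was -0.032 (all genes, -0.054). DESeq2 called 9 positive and 8 negative clock genes. The 5 positive genes, LHY, CCA1, RVE1, RVE2 and RVE8, all code for MYB-like factors of 1 family, and all 5 were lower in gemin2 than in WT after 1 h. RVE6, another REVEILLE gene of the list, was not called. Of the 8 negative genes, 7 were higher in gemin2 after 1 h. The 1 h libraries are part of the interaction, so its calls favour these directions and the counts only describe them. Among all 849 positive genes, 212 were lower only after 1 h, 71 were lower then higher, and 25 were lower at both times. Among all 1493 negative genes, 414 were higher only after 1 h, 167 were higher then lower, and 34 were higher at both times. Plants grew in continuous light and the labels do not give the hour of harvest, so the phase of the clock and the hours of cold cannot be told apart.

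LHY (chromosome 1, 33379 to 37871), a dawn factor that represses evening genes, was at 84.9, 99.999 and 90.7 CPM after 1 h and 85.6, 101 and 91.8 CPM after 24 h in WT. In gemin2 LHY was at 42.8, 51.6 and 47.8 CPM after 1 h and 136, 164 and 160.0 CPM after 24 h. The gemin2 libraries lie below those of WT after 1 h and above them after 24 h, and the interaction was 1.68 ± 0.15, adjusted p = 2.42e-05. RVE8 (chromosome 3, 2946406 to 2948995), a related factor that activates evening genes, fell in WT (-1.84 ± 0.16) and differed by -0.076 ± 0.15 between the times in gemin2 (adjusted p = 0.688). Its WT libraries were at 50.6, 66.6 and 51.5 CPM after 1 h and 17.8, 15.5 and 13.97 CPM after 24 h. In gemin2 RVE8 was at 35.1, 27.9 and 26.7 CPM after 1 h and 34.4, 25.6 and 25.4 CPM after 24 h, so the order of the genotypes turned round (1.76 ± 0.22, adjusted p = 2.21e-04). RVE2 had means of 54.5 ± 5.90 CPM and 10.2 ± 0.729 CPM in WT and 30.6 ± 2.202 CPM and 19.6 ± 5.90 CPM in gemin2 and an interaction of 1.78 ± 0.23, adjusted p = 3.35e-04. CCA1, the close relative of LHY (1.23 ± 0.16, adjusted p = 3.93e-04), and RVE1, which links the clock to auxin (1.21 ± 0.22, adjusted p = 0.00294), were also lower in gemin2 after 1 h. After 24 h their genotype differences of 0.18 ± 0.11 and 0.30 ± 0.16 did not pass (adjusted p = 0.222 and 0.148).

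PRR7 (chromosome 5, 637897 to 641977), a daytime repressor of LHY and CCA1, was at 20.1, 22.6 and 25.7 CPM after 1 h and 51.4, 61.4 and 63.4 CPM after 24 h in WT. In gemin2 PRR7 was at 88.3, 85.7 and 89.0 CPM after 1 h and 55.3, 66.2 and 59.2 CPM after 24 h. It was higher in gemin2 in all libraries after 1 h and overlapped with WT after 24 h (-1.90 ± 0.16, adjusted p = 1.26e-05). PRR5 (-1.29 ± 0.21), which follows PRR7 in the day, GI (-0.99 ± 0.16), which stabilises the photoreceptor ZTL, and FKF1 (-1.95 ± 0.32), a relative of ZTL, had the same form with adjusted p of 0.00154, 0.00162 and 0.00159. LUX, a part of the evening complex (-1.31 ± 0.24), and GRP7, an RNA-binding protein under clock control (-1.3 ± 0.20), were higher in gemin2 after 1 h and lower after 24 h, with adjusted p of 0.00354 and 0.00103. GRP8, the relative of GRP7, had an interaction of -0.75 ± 0.15, adjusted p = 0.00682. LNK2, a coactivator of RVE8, had one of -0.56 ± 0.16, adjusted p = 0.0363, overlaps AT3G54490 and passed in 4 of the 12 fits without 1 library. TOC1, the evening repressor, did not pass (-0.46 ± 0.15, adjusted p = 0.0609). The clock genes beyond PRR7, LHY, RVE8 and RVE2 were chosen after their values were seen.

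CO (chromosome 5, 5171182 to 5172758), the activator of flowering in long days, was at 35.8, 33.6 and 29.0 CPM after 1 h and 2.59, 3.04 and 2.80 CPM after 24 h in WT. In gemin2 CO was at 5.33, 7.19 and 6.27 CPM after 1 h and 2.29, 2.15 and 2.87 CPM after 24 h. WT was far above gemin2 after 1 h and the libraries overlapped after 24 h, with an interaction of 2.18 ± 0.22, adjusted p = 4.77e-05. It was the single called gene among 17 flowering genes tested of 18, beside 10.8% of all genes, and their median interaction was -0.029.

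Flavonoid genes held a regulator pair that moved in opposite ways. MYB111 (chromosome 5, 19998952 to 20001378), an activator of flavonol synthesis, was at 21.8, 18.9 and 19.5 CPM after 1 h and 30.1, 26.4 and 30.9 CPM after 24 h in WT. In gemin2 MYB111 was at 3.80, 4.87 and 2.82 CPM after 1 h and 22.3, 21.1 and 25.6 CPM after 24 h. Its 1 h libraries of gemin2 stood below all others, and the interaction was 2.04 ± 0.21, adjusted p = 6.52e-05. MYBL2 (chromosome 1, 26795123 to 26796364), a repressor of anthocyanin synthesis, was at 3.36, 3.83 and 3.21 CPM after 1 h and 3.22, 4.91 and 4.58 CPM after 24 h in WT. In gemin2 MYBL2 was at 15.3, 10.4 and 14.7 CPM after 1 h and 3.03, 5.82 and 2.96 CPM after 24 h, high only after 1 h (-2.07 ± 0.35, adjusted p = 0.00200). Of 20 flavonoid genes tested, 3 were positive and 2 negative, beside 3.91% and 6.87% of all genes, and the median was 0.36. The other called members were 4CL3, an enzyme at the entry to flavonol synthesis (1.16 ± 0.20, adjusted p = 0.00210), PAP1, an activator of anthocyanin genes (0.98 ± 0.21, adjusted p = 0.00840), and UGT75C1, which glycosylates anthocyanins (-0.79 ± 0.22, adjusted p = 0.0325, passing in 6 of 12 fits without 1 library). Both PAP1 and UGT75C1 were lower in gemin2 at both times. In the single contrasts 16 of the 20 genes were lower in gemin2 after 1 h and 11 after 24 h, beside 14.3% and 19.9% of all genes.

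**Figure D3:**
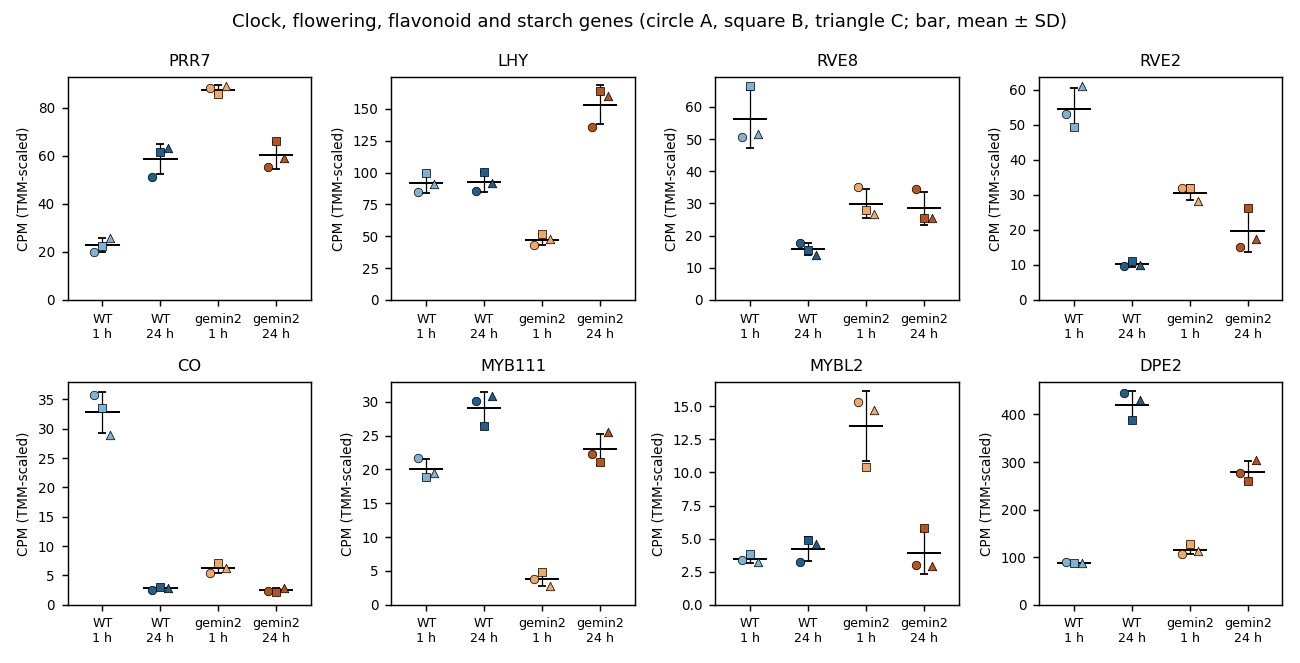
Levels in CPM (vertical axes, from 0) of 8 genes of the clock, flowering, flavonoid and starch lists in each library, by group, with a bar for the mean and whiskers for the SD of 3 libraries. PRR7 and MYBL2 are high in gemin2 after 1 h, MYB111 is low there, LHY, RVE8 and RVE2 change order between the genotypes with time, CO is high only in WT after 1 h and DPE2 rises less in gemin2.

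Genes of the CBF and COR cold response moved with time in both genotypes. Of 22 tested, 14 rose and 6 fell in WT, 12 rose and 6 fell in gemin2 (26.8% and 25.4% of all genes in WT, 27.5% and 31.2% in gemin2), and the interaction passed for 2 positive and 4 negative genes (3.91% and 6.87% of all genes; median of the list -0.20). ZAT12 (chromosome 5, 24102972 to 24103787), a zinc finger repressor induced by cold and oxidative stress, was at 15.3, 12.5 and 14.2 CPM after 1 h and 27.4, 30.5 and 26.0 CPM after 24 h in WT. In gemin2 ZAT12 was at 25.6, 18.3 and 21.7 CPM after 1 h and 103, 86.1 and 97.3 CPM after 24 h. It rose in both genotypes and more in gemin2 (1.12 ± 0.18, adjusted p = 0.00145). ADH1, alcohol dehydrogenase, was lower in gemin2 after 1 h (-1.70 ± 0.23) and differed by -0.11 ± 0.22 after 24 h (adjusted p = 0.709), with an interaction of 1.59 ± 0.32, adjusted p = 0.00582, and it overlaps AT1G77122. COR413PM1, a cold-induced membrane protein, rose less in gemin2 (-0.59 ± 0.14, adjusted p = 0.0151). COR27 (-0.75 ± 0.19, adjusted p = 0.0238), a clock-linked cold gene, passed in 8 of 12 fits without 1 library. CBF3 (-1.98 ± 0.58, adjusted p = 0.0438), one of the CBF activators, and MYB15 (-1.62 ± 0.45, adjusted p = 0.0355), a repressor of CBF genes, passed in 4 and 4, and CBF3 had an adjusted p of 0.0526 with DESeq2.

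Early calcium, touch and stress genes mostly fell from 1 h to 24 h. Of 14 tested of 15, 13 fell in WT and 10 in gemin2 (25.4% and 31.2% of all genes). The interaction was positive for 3 and negative for 1 (3.91% and 6.87% of all genes), with a median of 0.43. Besides ZAT12, which is in both lists, SZF1, a zinc finger gene of salt stress, was positive (0.95 ± 0.18, adjusted p = 0.00384). WRKY33, a defence regulator that overlaps AT2G38480 (0.61 ± 0.18, adjusted p = 0.0442), and ERF5, an ethylene response factor (-0.82 ± 0.21, adjusted p = 0.0222), were called here and in 3 and 8 of 12 fits without 1 library. Of 19 heat shock genes tested of 20, 4 were positive and 1 negative, beside the same shares of all genes. HSP90.1, a stress-induced cytosolic chaperone, held in all 12 fits (1.06 ± 0.17, adjusted p = 0.00162), whereas HSFA3 (1.57 ± 0.41, adjusted p = 0.0246), HSP90.2 (0.48 ± 0.13, adjusted p = 0.0331), HSP70 (0.71 ± 0.20, adjusted p = 0.0334) and HSFA7A (-1.03 ± 0.28, adjusted p = 0.0307) held in 8, 5, 6 and 5.

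Of 23 abscisic acid response genes tested of 24, 3 were positive and 1 negative, beside 3.91% and 6.87% of all genes. HAB1, a phosphatase that restrains abscisic acid signalling, fell less in gemin2 (0.71 ± 0.15, adjusted p = 0.00731) and held in all 12 fits without 1 library. HB12 (0.95 ± 0.27, adjusted p = 0.0337), RD29B (1.55 ± 0.45, adjusted p = 0.0415) and RD26 (-0.92 ± 0.24, adjusted p = 0.0221) held in 4, 4 and 8. None of 12 jasmonate genes tested of 13 passed, with MYC2, the central activator, at -0.48 ± 0.21, adjusted p = 0.178. Of the 12, 2 had an unadjusted p under 0.05 and DESeq2 called 0, and their median was -0.35.

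Salicylic acid and defence genes included several that were near 0 in WT after 1 h. PR2 (chromosome 3, 21188517 to 21189859), a glucanase of the pathogenesis-related group, was at 1.04, 1.16 and 0.498 CPM after 1 h and 5.65, 5.12 and 5.602 CPM after 24 h in WT. In gemin2 PR2 was at 4.78, 3.66 and 3.59 CPM after 1 h and 3.98, 5.01 and 4.24 CPM after 24 h. The WT libraries after 1 h lie below all others, and the interaction was -2.48 ± 0.33, adjusted p = 4.27e-04, with an adjusted p of 0.102 when all 18 libraries were fitted. PR1, the marker of the same group, had 4 counts over the 3 WT libraries after 1 h and means of 7.81 ± 3.401 CPM in gemin2 after 1 h, 3.86 ± 3.02 CPM in WT after 24 h and 5.70 ± 1.07 CPM in gemin2 after 24 h (adjusted p = 0.00127), and no fold is given for it. Of the 15 genes, all tested, 2 were positive and 3 negative, beside 3.91% and 6.87% of all genes. The others called were FMO1, a gene of systemic resistance (-1.58 ± 0.37, adjusted p = 0.0143), ICS1, the enzyme of salicylic acid synthesis (0.94 ± 0.22, adjusted p = 0.0147), and WRKY70 (0.72 ± 0.15, adjusted p = 0.00835, and 0.110 with all 18 libraries).

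DPE2 and SEX1, which act in starch breakdown, rose in both genotypes and less in gemin2. DPE2 (chromosome 2, 17044963 to 17050947), the cytosolic enzyme that takes up maltose from starch, was at 90.4, 88.1 and 87.8 CPM after 1 h and 444, 388 and 430.0 CPM after 24 h in WT. In gemin2 DPE2 was at 107, 127 and 113 CPM after 1 h and 276, 259 and 303 CPM after 24 h. After 1 h it was higher in gemin2 and after 24 h lower, without overlap of the libraries at either time (-0.97 ± 0.14, adjusted p = 6.80e-04). SEX1, the glucan water dikinase that opens starch to breakdown, had means of 193 ± 10.7 CPM and 817 ± 41.3 CPM in WT and 250.1 ± 19.5 CPM and 540.0 ± 50.3 CPM in gemin2 (-0.97 ± 0.15, adjusted p = 0.00101). BAM3, a plastid amylase, went the other way (0.84 ± 0.22, adjusted p = 0.0257) and held in 5 of 12 fits without 1 library. These were the 3 called of 12 sugar and lipid genes tested, beside 10.8% of all genes. Of 23 nuclear photosynthesis genes, 20 fell in WT and 21 in gemin2 (25.4% and 31.2% of all genes). The interaction passed for 3 of the 23, beside 10.8% of all genes, namely RBCS2B (1.51 ± 0.30, adjusted p = 0.00591), RBCS1B (0.95 ± 0.27, adjusted p = 0.0353) and LHCB1.1 (-1.06 ± 0.30, adjusted p = 0.0366). RBCS and LHCB1 genes are close copies within their families, so their reads may be split between them.

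In the 2 splicing machinery lists 4 of 41 and 3 of 23 genes were called, near the 10.8% of all genes. All of these calls were positive, and their shared direction was not tested. Of 41 Sm, LSm and snRNP genes tested, 4 were positive and 0 negative, beside 3.91% and 6.87% of all genes (7 and 0 with DESeq2, median 0.11). From 1 h to 24 h, 29 of them rose in WT and 33 in gemin2, beside 26.8% and 27.5% of all genes. U2AF65B (chromosome 1, 22423909 to 22428022), which codes for the large subunit of the factor that marks the end of introns, was at 110.0, 117 and 90.7 CPM after 1 h and 77.7, 71.6 and 79.0 CPM after 24 h in WT. In gemin2 U2AF65B was at 94.9, 79.8 and 79.3 CPM after 1 h and 103, 92.5 and 104 CPM after 24 h. It fell in WT, with a change in gemin2 of 0.24 ± 0.11 (adjusted p = 0.0759) and an interaction of 0.71 ± 0.15, adjusted p = 0.00906. BRR2A, a helicase of the U5 snRNP (0.58 ± 0.14, adjusted p = 0.0169), STA1, a U5 snRNP protein needed in the cold (0.62 ± 0.15, adjusted p = 0.0170), and U1C, a U1 snRNP protein (0.60 ± 0.15, adjusted p = 0.0189), rose more in gemin2. BRR2A lost its call without library C of WT after 24 h (adjusted p = 0.0629), STA1 without B or C of that group (0.0501 and 0.0534), and U1C in 5 of the 12 fits. Of 23 SR and hnRNP genes, 3 were positive and 0 negative, beside the same shares of all genes (median 0.19). They were SCL30A, a splicing regulator of the SR group (0.68 ± 0.15, adjusted p = 0.0115), SCL33 (0.78 ± 0.23, adjusted p = 0.0408) and RSZ22A (0.49 ± 0.14, adjusted p = 0.0434), of which SCL33 and RSZ22A held in 2 and 3 of 12 fits.

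The lists of cell type markers, ribosome biogenesis genes and reference genes gave 1 call. None of 12 root markers, 19 ribosome biogenesis genes and 7 reference genes passed for the interaction, with 3, 3 and 0 at an unadjusted p under 0.05 and 0, 1 and 0 called by DESeq2. All 19 ribosome biogenesis genes rose from 1 h to 24 h in both genotypes, beside 26.8% of all genes in WT and 27.5% in gemin2. Of 6 markers of dividing cells CYCB1;1, a mitotic cyclin, was positive (1.24 ± 0.20, adjusted p = 0.00148). The summed level of the root markers ran from 237 to 248 CPM in WT after 1 h, 219 to 251 in WT after 24 h, 197 to 209.5 in gemin2 after 1 h and 197 to 228 in gemin2 after 24 h, and that of the dividing cell markers from 64.5 to 76.8, 51.7 to 53.2, 59.3 to 77.8 and 51.5 to 63.7. Their part in the gene results was not tested.

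Among introns that differed between the genotypes most were higher in gemin2, after 1 h as after 24 h, and no intron passed for a change of that difference between the times. The reads in an intron were tested relative to the count of the gene that holds it. Of 10774 introns, 1345 were higher and 163 lower in gemin2 after 1 h (14% called) and 1785 and 174 after 24 h (18.2%). In both contrasts 978 introns passed, which is 64.9% of those of 1 h and 49.9% of those of 24 h, and 977 of them had the same sign. The interaction passed for 0 introns by edgeR's test, with 862 at an unadjusted p under 0.05 (8%), a smallest adjusted p of 0.0543 and a median of 0.034 on the log2 scale. DESeq2 called 9 positive and 5 negative introns. The introns of AGT, UAP56a and OEP16-1 described below also passed in edgeR's test with the library letters as a replicate block. The median SE was 0.56, and 13% of the introns had a 95% interval within ±1. For most introns a change of the genotype difference by 2 times was therefore not detectable with these libraries.

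The median interaction was 0.059 for 4230 introns of up to 100 bases, 0.011 for 3661 of over 100 to 300 bases and 0.019 for 2883 longer ones. Over introns, Pearson's r of the genotype difference between 1 h and 24 h was 0.677, a description with no library shared between the axes. Time alone changed few introns relative to their genes in WT (47 higher and 69 lower, 1.08%) and more in gemin2 (301 and 201, 4.66%). That difference between the genotypes was tested only through the interaction of each intron. Introns of genes with a positive interaction had a median of 0.025 relative to their genes and 0.78 without that reference, those of genes with a negative interaction 0.12 and -0.69, and those of other genes 0.027 and 0.049.

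**Figure D4:**
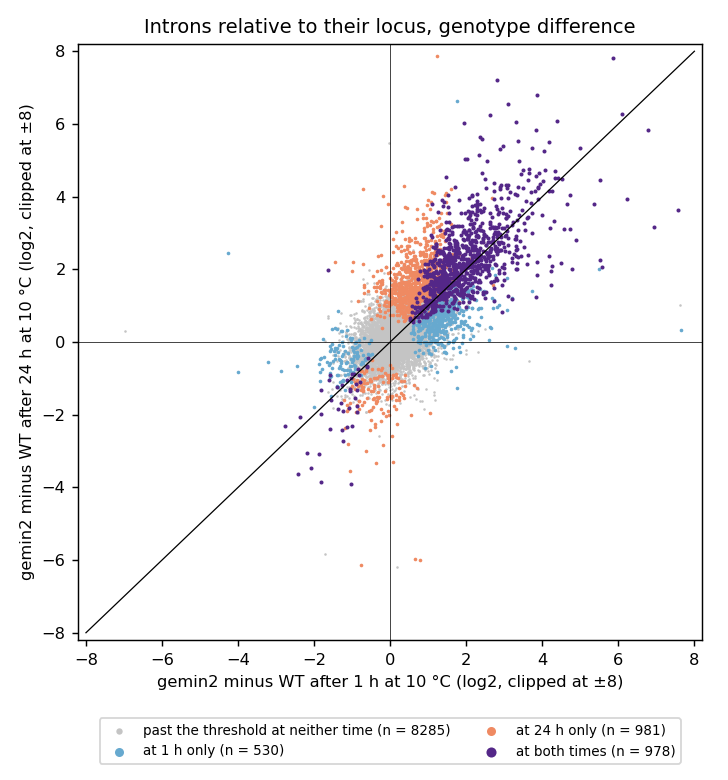
Genotype difference (gemin2 minus WT, log2, relative to the count of the gene) of each of 10774 introns after 1 h (horizontal axis) and after 24 h (vertical axis) at 10 °C, coloured by the contrast that passed. The 978 introns called at both times lie along the diagonal and mostly above 0, and 530 passed only after 1 h and 981 only after 24 h.

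The introns named for the smallest p show what forms the data hold, although none passed in the test used throughout. Intron and bin numbers here and below are those of the deposited annotation. They rise along the chromosome, so in genes on the minus strand they do not count from the 5′ end. The sequences of some of these introns are printed to show their lengths and splice sites, 5′ to 3′ on the strand of the gene, in TAIR10, with the GT and AG of the ends in capitals.
AGT intron 1 (chr2:5539555-5539632, minus strand): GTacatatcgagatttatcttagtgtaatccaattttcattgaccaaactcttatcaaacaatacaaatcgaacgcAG
ABCB4 intron 1 (chr2:19310362-19310456, minus strand): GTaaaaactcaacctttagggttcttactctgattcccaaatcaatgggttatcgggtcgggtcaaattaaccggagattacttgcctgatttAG
SCL30 intron 7 (chr3:20563315-20563399, plus strand): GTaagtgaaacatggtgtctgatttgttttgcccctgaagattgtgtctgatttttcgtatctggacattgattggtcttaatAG
OEP16-1 intron 4 (chr2:12414956-12415206, minus strand): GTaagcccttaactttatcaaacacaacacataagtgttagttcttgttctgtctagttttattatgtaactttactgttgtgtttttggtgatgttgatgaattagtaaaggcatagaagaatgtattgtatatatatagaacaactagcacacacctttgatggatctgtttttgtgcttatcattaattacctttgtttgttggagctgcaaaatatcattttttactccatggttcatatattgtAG
STY46 intron 14 (chr4:18003167-18003239, plus strand): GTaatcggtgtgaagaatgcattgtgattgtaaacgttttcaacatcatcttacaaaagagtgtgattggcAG

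AGT codes for the alanine glyoxylate aminotransferase of photorespiration. Its intron 1 was at 0.0906, 0.0675 and 0.0957% after 1 h and 0.0516, 0.0985 and 0.102% after 24 h of the count of its gene in WT. In gemin2 AGT intron 1 was at 0.348, 0.532 and 0.603% after 1 h and 1.41, 3.39 and 3.37% after 24 h. All gemin2 libraries exceed all WT libraries at both times and those of 24 h exceed those of 1 h, with an interaction of 2.44 ± 0.45, adjusted p = 0.0757. It passed with DESeq2 (0.00145), with all 18 libraries (0.0126) and without library A of each group (0.00204). It also passed with the library letters as a replicate block (0.00650). ABCB4 codes for an auxin transporter, and its intron was at 0.399, 0.552 and 0.216% after 1 h and 0.166, 0.282 and 0.269% after 24 h in WT. In gemin2 ABCB4 intron 1 was at 0.798, 0.599 and 1.07% after 1 h and 3.27, 4.09 and 3.64% after 24 h, in the same order (2.78 ± 0.53, adjusted p = 0.0757). GTG1, a membrane protein of abscisic acid signalling, had the largest of these interactions at its intron 7 (2.96 ± 0.57, adjusted p = 0.0757), on a mean of only 12.2 counts. UAP56a, an RNA helicase of splicing and RNA export with a near-identical copy (AT5G11200), had an intron 6 (chromosome 5, 3554940 to 3555623) at 10.8, 10.2 and 8.25% after 1 h and 3.90, 4.95 and 5.67% after 24 h in WT. In gemin2 UAP56a intron 6 was at 8.57, 7.54 and 6.87% after 1 h and 9.30, 11.5 and 11.1% after 24 h. The WT libraries of 24 h lie below all others (1.47 ± 0.26, adjusted p = 0.0656). The adjusted p was 0.00119 with DESeq2, 0.0126 with all 18 libraries and 0.0368 without library A of each group. With the library letters as a replicate block it was 0.0410.

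OEP16-1, a channel of the outer chloroplast membrane, had the smallest p of all introns. Its intron 4 was at 1.65, 1.305 and 1.498% after 1 h and 1.35, 1.84 and 1.65% after 24 h in WT. In gemin2 OEP16-1 intron 4 was at 5.03, 7.58 and 6.23% after 1 h and 1.88, 2.53 and 2.06% after 24 h. It stood above WT after 1 h and came close to WT after 24 h, with an interaction of -1.66 ± 0.27, adjusted p = 0.0543. This intron passed with DESeq2 (0.00119) and with all 18 libraries (0.00574), and without library A of gemin2 after 1 h (0.0127). With the library letters as a replicate block it passed too (0.00666). STY46 codes for a kinase that acts on chloroplast precursor proteins, and its intron 14 had means of 0.253 ± 0.0837% and 1.2997 ± 0.851% in WT and 2.62 ± 0.384% and 1.15 ± 0.515% in gemin2 (-3.46 ± 0.67, adjusted p = 0.0757). The introns of ABCB4, GTG1 and STY46 each had an adjusted p of 0.0268 with DESeq2. RbcX1, a Rubisco assembly chaperone (-1.61 ± 0.32, adjusted p = 0.105), and AT4G16680 (-2.64 ± 0.54, adjusted p = 0.109), an RNA helicase, were negative as well. These 2 introns also had an adjusted p of 0.0268 with DESeq2, and that of RbcX1 was 0.0395 without library A of each group. RbcX1 overlaps AT4G04320 and AT4G16680 overlaps AT4G16670. Of the 978 introns called at both times, AT1G18060 intron 3 was the single one of opposite sign (3.6 ± 0.77, adjusted p = 0.109), and it was chosen after its values were seen. This intron had a mean of 12.6 counts. Its WT libraries A, B and C after 24 h were at 0, 0.249 and 0.423%, so its size rests on values near 0.

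**Figure D5:**
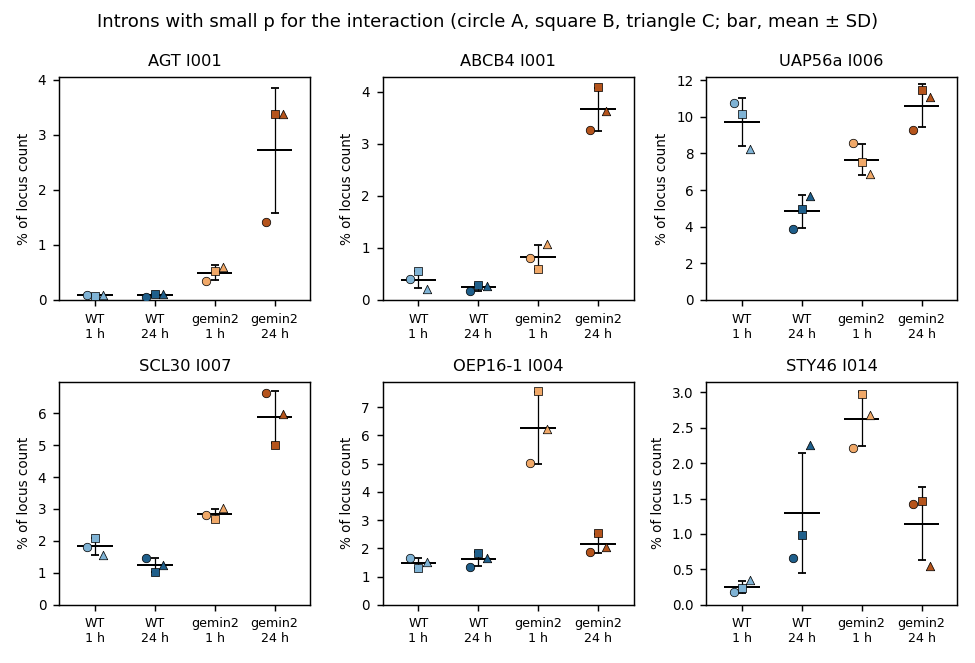
Intron count as percent of the count of its gene (vertical axes, from 0) for 6 introns in each library, by group, with a bar for the mean and whiskers for the SD of 3 libraries. AGT, ABCB4 and SCL30 introns are highest in gemin2 after 24 h, OEP16-1 and STY46 introns have their highest mean in gemin2 after 1 h, and the UAP56a intron is low only in WT after 24 h.

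Introns of the listed genes, taken by small p within each list, came next. SCL30, an SR protein gene, retained its intron 7 at 1.81, 2.097 and 1.57% after 1 h and 1.46, 1.01 and 1.26% after 24 h in WT. In gemin2 SCL30 intron 7 was at 2.82, 2.68 and 3.02% after 1 h and 6.64, 5.02 and 5.97% after 24 h (1.62 ± 0.34, adjusted p = 0.109). The smallest p among clock introns was that of PRR7 intron 4 (1.60 ± 0.48, adjusted p = 0.266). Among the others, SR34 intron 1 stood at 2.11 ± 0.59, adjusted p = 0.208, COR15B intron 1 at -1.3 ± 0.33, adjusted p = 0.174 and U2AF65A intron 10 at -1.93 ± 0.50, adjusted p = 0.174. None of these passed.

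Alternative splicing bins gave the same picture. Of 3946 bins, 197 were higher and 60 lower in gemin2 after 1 h (6.51%) and 190 and 44 after 24 h (5.93%), 107 passed at both times and all 107 with the same sign. The interaction passed for 0 bins by edgeR's test, with 208 at an unadjusted p under 0.05 (5.27%) and a smallest adjusted p of 0.301, and DESeq2 called 3, all negative. Of the bins, 41.9% had a 95% interval within ±1. Among 1109 bins of intron retention, 86 were higher and 14 lower in gemin2 after 1 h and 92 and 8 after 24 h.

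The largest bin difference by p lay in SPY, which codes for the O-fucosyltransferase that restrains gibberellin signalling and acts on PRR5. The bin is a skipped exon of 69 bases, printed because its length is a multiple of 3, the length of a codon.
SPY exon bin 10 (chr3:3634879-3634947, plus strand): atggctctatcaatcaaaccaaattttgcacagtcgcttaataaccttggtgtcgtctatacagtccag
The exon was at 1.35, 1.65 and 1.36% after 1 h and 2.58, 2.86 and 3.22% after 24 h of the gene count in WT. In gemin2 SPY exon bin 10 was at 2.11, 3.66 and 2.25% after 1 h and 1.12, 1.20 and 0.897% after 24 h. All WT libraries after 24 h lay above those after 1 h, and all gemin2 libraries after 24 h lay below those after 1 h. The interaction of this bin was -2.30 ± 0.44, adjusted p = 0.301, and it passed with DESeq2 (0.0410). AT5G47455 overlaps AT5G47460, and its bin 6 was at 27.97, 28.7 and 22.1% after 1 h and 17.3, 17.1 and 16.9% after 24 h in WT. In gemin2 AT5G47455 bin 6 was at 19.6, 13.9 and 19.5% after 1 h and 3.02, 3.50 and 5.71% after 24 h, with the lowest values in gemin2 after 24 h (-1.48 ± 0.35, adjusted p = 0.413). The retained intron bins of DSS1(I), a proteasome subunit (1.86 ± 0.42, adjusted p = 0.413), and SHM2, a serine hydroxymethyltransferase (2.04 ± 0.49, adjusted p = 0.413), had positive interactions, and PRP39, a U1 snRNP protein, a negative one (-3.73 ± 0.80, adjusted p = 0.372). DSS1(I) overlaps AT1G64740. The retained intron of U1-70K, the U1 snRNP protein, was at 3.35 ± 0.603% and 2.48 ± 0.350% in WT and 0.151 ± 0.0175% and 0.279 ± 0.0733% in gemin2, low in gemin2 at both times (1.33 ± 0.35, adjusted p = 0.508), and that of LHY had an interaction of 1.48 ± 0.40, adjusted p = 0.526. None of these bins passed in the test used throughout.

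The total share of intron counts gave 1 value per library. Introns took 2.00%, 2.03% and 2.13% of the sum of gene counts in WT after 1 h and 2.07%, 2.23% and 2.17% after 24 h. In gemin2 the shares were 2.24%, 2.51% and 2.36% after 1 h and 2.37%, 2.66% and 2.65% after 24 h. Every gemin2 library lies above every WT library of the same time, with means of 2.05% ± 0.0699, 2.16% ± 0.0818, 2.37% ± 0.133 and 2.56% ± 0.167 (SD, n = 3). The interaction of the share was 0.0861 percentage points, two-sided exact permutation p = 0.745 over 400 arrangements (the smallest p they allow is 0.005). The arrangements shuffled the genotypes within each time, so the genotype difference itself widened their spread. This test therefore cannot decide whether the genotype difference in the total share changed with time.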

How the data were processed

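Whole-plant RNA of 12 libraries was compared, with 3 libraries in each of 4 groups. Per the submitters' processing notes the authors used TopHat2 2.0.9, R 3.0.2 and edgeR 3.4.2 with TAIR10; no source used here names the counting program or how it handled strand. Per the labels' protocols the TruSeq kit selects poly(A) RNA and does not mark strand, so overlapping genes are named as such. The deposited tables hold raw read counts for 33602 genes, 120717 introns and 7973 alternative splicing bins, and 42 deposited tables of comparisons were not used. Library letters A, B and C mark the columns. They are not tied to the labels' replicate numbers by any source, and columns were mapped to groups only. Introns matched TAIR10.1, with GT and AG ends for 98.67% of 120454.

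Genes were filtered with filterByExpr and scaled with TMM factors. The quasi-likelihood test of edgeR 4.0.16 (limma 3.58.1, R 4.3.3) was fitted over the 4 groups, and the interaction was tested as a contrast. Introns and bins took the count of their gene as an offset and were tested at a mean of at least 10 counts where the gene had a mean of at least 50 and at least 10 in every library. Adjusted p-values are Benjamini-Hochberg values over all features of a table, with a threshold of 0.05, and an SE is the log2 value divided by the root of F. The intron share was compared with an exact permutation test over libraries (SciPy 1.17.1). The scripts were tested on simulated data, with interactions of known size added to features above a minimum mean count. Of changes by 2 times, 52.1% were recovered for genes, 1.61% for introns and 33.8% for bins. Of changes by 4 times, 93%, 63.8% and 81.7% were recovered.

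The genes described, the lists and the tests were chosen with earlier results of these data known. By the naming rule, GEMIN2 came first, then, among called genes with a mean of at least 5 CPM that held in each of the 12 fits without 1 library, the 10 largest positive and 10 largest negative interactions and the 5 smallest adjusted p in each direction, and from each list the 4 members of smallest adjusted p at most. For introns and bins, none of which passed, the 4 smallest adjusted p in each direction were taken, with listed genes added. Some named features are left out for length. Sequences come from RefSeq, assembly TAIR10.1, for genes, and from the TAIR10 chromosomes at the deposited coordinates for introns and the bin. Of 317 list genes, 317 were matched. As alternatives, RLE factors, DESeq2 1.42.0, other count minimums or no filter, a minimum log2 change, no offset, a fit over all 18 libraries (the 22 °C libraries entered no other fit), a replicate block, the groups without library A, and leaving out each library were run. The share over nuclear genes was added after the data were seen.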

Additional observations from a re-analysis of the deposited data

Results flagged for a closer look

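The results below were picked out because the effect of time differed between the genotypes by the test of the interaction, which passed for 849 positive and 1493 negative genes, and, among the named genes, because the effect passed in opposite directions in both arms of the contrast. The change from 1 h to 24 h passed as a fall in WT and a rise in gemin2 for UGT73C6 (interaction 3.31), AT2G36792 (3.32), which overlaps it, DOGT1 (2.58), SNRK2-8 (2.27) and WRKY70 (0.72). It passed as a rise in WT and a fall in gemin2 for PRR7 (-1.90), AT5G23240 (-2.36) and the noncoding gene AT1G30282 (-2.40). The genotype difference passed as lower in gemin2 after 1 h and higher after 24 h for LHY (1.68), RVE8 (1.76), RVE2 (1.78), U2AF65B (0.71) and AT3G24780 (3.26). It passed as higher after 1 h and lower after 24 h for AT1G26240 (-4.85), CYP71A12 (-2.70), AT5G22920 (-2.57), NUDT8 (-2.51), AT5G62360 (-2.50), DPE2 (-0.97) and SEX1 (-0.97). All are log2 values from edgeR's test over 3 libraries a group, and WRKY70 did not pass when all 18 libraries were fitted (adjusted p = 0.110).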

How the results depend on the processing

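Over all alternatives no reported value changed sign past its threshold, while counts of calls moved. For genes, 302 positive and 541 negative calls had an absolute log2 value of at least 1. Positive calls numbered 1388 with DESeq2, 1515 with all 18 libraries and 1607 without library A of each group, and 522 to 1019 with 1 library left out (negative, 1015 to 1603). For introns, positive and negative calls numbered 9 and 5 with DESeq2, 2 and 2 with all 18 libraries, 5 and 2 without library A, 2 and 1 at a mean of 3 counts, 1 and 1 at a mean of 30, 38 and 20 without the gene offset, and 0 to 2 and 0 to 1 with 1 library left out. For bins, positive calls numbered 14 without the offset and 0 with 1 library left out, and negative calls 3 with DESeq2, 2 with all 18 libraries, 2 without library A, 25 without the offset and 0 to 1 with 1 library left out. Without the offset a region also carries the change of its gene; for the other settings the cause was not tested. The interaction of the intron share ran from 0.0226 to 0.183 percentage points with 1 library left out, was 0.0451 over tested introns, 0.0413 as a median and 0.0528 over nuclear genes. Of the 93 genes that the naming rule took, 67 were called and 19 of these lost the call in at least 1 setting; called list members added after their values were seen are not in these counts.

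Library letters were shared by all groups. Deviations of same-letter libraries correlated above 0.1 in 15 of 18 pairs of groups (lowest -0.242, highest 0.752). In 20 of 36 comparisons of a library with another group it correlated best with its own letter among 3. Same-letter libraries thus tended to deviate alike, though not in every pair, and no source states what the letters share. The fit used throughout took no pairing, so its counts are to be read beside those with the letters as a block. With the letters as a replicate block 1362 genes were positive and 2021 negative, and 2 introns were positive (AGT intron 1, 0.00650, and UAP56a intron 6, 0.0410) and 1 negative (OEP16-1 intron 4, 0.00666). The median SE of the interaction was 0.56 for introns against 0.22 for genes, and the part of depth in that was not tested.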
